A study of Mus musculus with 4 samples.

Results

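The 10 mature miRNAs described here have precursors that overlap a small nucleolar RNA (snoRNA) or a small Cajal body RNA (scaRNA), and were followed in activated mouse T cells. They are mmu-miR-677-5p, mmu-miR-677-3p, mmu-miR-5121, mmu-miR-1291, mmu-miR-664-3p, mmu-miR-3084-3p, mmu-miR-3068-3p, mmu-miR-3068-5p, mmu-miR-6516-3p and mmu-miR-1843b-3p, written without the species prefix from here on. They are 10 of the 1073 mature miRNAs in the authors' deposited table and come from 8 precursors. They were picked by name with their ASO and CRO values already known, so their difference between the groups is described here and not tested. Small RNA was sequenced from wild type naive CD4+ T cells of mouse spleen. The ASO group held 2 samples transfected with ASO, and the CRO group held 2 samples transfected with its control, CRO. In all 4 samples the cells were then activated with antibodies to CD3 and CD28, and harvested 48 h later. The labels do not spell out what ASO and CRO stand for. They do not name separate mice or cultures for the samples of 1 group, so the spread between these may be technical.

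snoRNAs guide the chemical modification of other RNAs. Box C/D snoRNAs, which carry a C box near the start and a D box near the end, guide ribose methylation. H/ACA snoRNAs fold into a pair of hairpins, end with an ACA box close to their 3′ terminus and guide pseudouridylation. scaRNAs carry the boxes of either type and guide the modification of spliceosomal RNAs in Cajal bodies. In mammals most of them lie in introns of other genes and are trimmed from the spliced intron. Some are cut further into fragments of miRNA size, a few of which have been found on Argonaute proteins. The human scaRNA SCARNA15 is a known example, whose fragment needs Dicer but not Drosha.

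The mature sequences are shown because the seed is the part that pairs with targets and none is shared. Each is written 5′ to 3′ from RefSeq (GRCm38.p6) with the seed, bases 2 to 8, in capitals.
miR-677-5p: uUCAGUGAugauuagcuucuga
miR-677-3p: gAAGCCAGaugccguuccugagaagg
miR-5121: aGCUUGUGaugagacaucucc
miR-1291: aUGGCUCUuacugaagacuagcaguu
miR-664-3p: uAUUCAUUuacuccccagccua
miR-3084-3p: uUCUGCCAgucuccuucagac
miR-3068-3p: gGUGAAUUgcaguacuccaaca
miR-3068-5p: uUGGAGUUcaugcaaguucuaacc
miR-6516-3p: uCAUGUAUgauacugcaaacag
miR-1843b-3p: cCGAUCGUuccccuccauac
The 10 seeds all differ, and no other mature miRNA among the 1679 of the RefSeq table has any of them. The sequences are 20 to 26 bases long, and 5 of the 10 begin with U.

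All 10 could be placed on a snoRNA or scaRNA transcript of GENCODE M21 at the same locus and strand (GRCm38), with every matched base identical. The miR-677 hairpin (chr10:128085286-128085363, plus strand) lies in an intron of Atp5b, which encodes a subunit of ATP synthase. The miR-5121 hairpin (chr7:45126918-45126991, minus strand) lies in Rpl13a, a ribosomal protein gene, where it overlaps an exon of at least 1 annotated transcript, and it shares 30 bases with Snord33. The miR-1291 hairpin (chr15:98519762-98519878, minus strand) lies in an intron of Kansl2 and overlaps Snora34. The miR-664 hairpin (chr1:185242975-185243043, plus strand) lies in an intron of Rab3gap2 and overlaps Snora36b. miR-3084 has a pair of identical hairpins, in introns of Eif3a (chr19:60774329-60774397, minus strand, on Snora19) and Cbwd1 (chr19:24942235-24942303, minus strand), so their reads cannot be told apart. The miR-3068 hairpin (chr12:87437679-87437757, minus strand) lies in an intron of Alkbh1. The miR-6516 hairpin (chr11:117077348-117077457, plus strand) lies in Snhg20, a non-coding snoRNA host gene, over an exon of at least 1 transcript, and overlaps an annotated scaRNA, Gm26083. The miR-1843b hairpin (chr1:159340358-159340423, plus strand) lies in an intron of Cop1, a ubiquitin ligase gene, and overlaps Scarna3a.

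The host type is given by the gene name for Snord33 (box C/D) and for Snora34, Snora36b and Snora19 (H/ACA). For the scaRNAs it is given by the annotated transcript type. The snoRNAs at the miR-677 and miR-3068 loci carry only the miRNA's name, so their type was read from end letters. The letters TGATGA within the first 15 bases together with CTGA within the last 15 occur in 63.3% of 98 transcripts named Snord and in 0 of 42 named Snora, read on the transcript strand. The letters ACA exactly 3 bases before the 3′ end occur in 83.3% of those named Snora and in 0 of those named Snord. The miR-677 host has the first pattern and the miR-3068 host the second. Gm23658, the snoRNA of the miR-3084 hairpin in Cbwd1, has no type in its name and also has the second. The following 3 hosts are shown because the place of the miRNAs on them recurs in the results, as DNA letters 5′ to 3′ with the bases of the mature miRNAs in capitals.
Mir677 snoRNA: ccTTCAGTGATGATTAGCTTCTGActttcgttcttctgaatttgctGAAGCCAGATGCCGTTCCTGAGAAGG
Snord33: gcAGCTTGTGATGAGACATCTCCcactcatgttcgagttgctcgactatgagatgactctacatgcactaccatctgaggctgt
Mir3068 snoRNA: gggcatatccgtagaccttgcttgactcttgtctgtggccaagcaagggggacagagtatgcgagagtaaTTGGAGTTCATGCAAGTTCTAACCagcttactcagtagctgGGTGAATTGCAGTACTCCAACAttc
miR-677-5p and miR-5121 both begin at base 3 of their host and hold UGAUGA, letters of the C box that occur in 0.715% of the 1679 mature sequences. miR-3068-3p ends with ACA, 3 bases from the host's 3′ end.

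Of the 10, 9 lay at an end of their host, within 5 bases of its first or last base. miR-1291 covers the first 26 bases of Snora34, and miR-677-3p ends on the last base of its host. The 3p miRNAs of miR-6516, miR-1843b, miR-3068, miR-3084 and miR-664 end 2, 3, 3, 4 and 5 bases before the 3′ end. miR-3068-5p is the exception, and covers bases 71 to 94 of a host of 136 bases. The deposited values are per miRNA name, so where individual reads began or ended was not analysed here. By RNAfold, 8 of the 9 member hairpins folded more weakly per base than the median of 1005 mouse hairpins (-0.406 kcal/mol per base). The miR-677 hairpin was the weakest of them, at -0.224 kcal/mol per base, and only 2.09% of all hairpins fold as weakly.

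**Figure D1:**
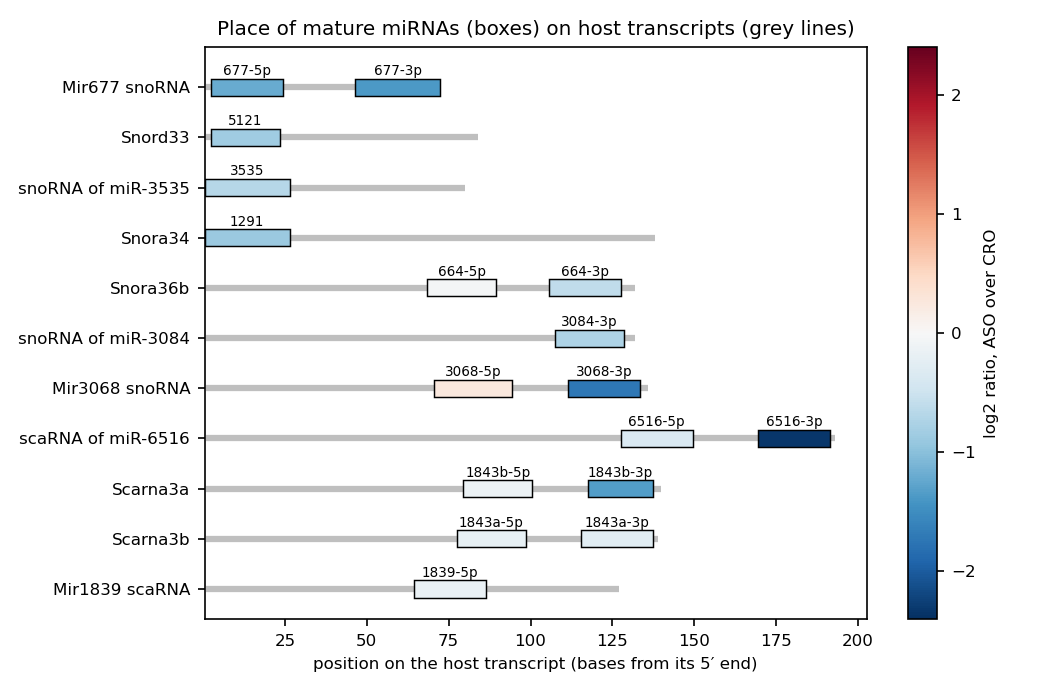
Position of the mature miRNAs that reached a base mean of 10 on their host transcripts, in bases from the 5′ end of the host (x axis), with 1 row per host. Boxes are coloured by the log2 ratio of ASO over CRO. The darkest boxes, miR-6516-3p (-2.33) and miR-3068-3p (-1.73), lie at 3′ ends, while miR-3068-5p (0.25) lies inside its host. miR-1839-3p is not drawn because its mature sequence was not in the reference table.

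The 4 libraries could be compared one by one because the deposited group means can be split back into whole read counts. The totals were 10192717 and 10483405 reads for the ASO libraries, and 5617699 and 3300457 for the CRO libraries. The 2 libraries of a group are called a and b, since which of them is which labelled replicate is not known. T cell miRNAs were abundant, with 6 of 6 listed markers present and a sum of normalized counts of 2032440 in ASO against 1824800 in CRO, although 4 of the 6 were lower in ASO and their median log2 ratio was -0.12. Erythroid markers (5 of 5 lower in ASO) summed to 1538 in ASO and 2458 in CRO. Myeloid markers (2 of 2 lower) summed to 5634 in ASO and 6714 in CRO, and epithelial markers (4 of 4 lower) to 3351 in ASO and 4188 in CRO. These 3 sums are lower in ASO, like most members. The muscle sum was also lower, at 4.26 in ASO and 6.15 in CRO. It holds 2 of 3 listed muscle markers, and 1 of the 2 was lower. Other sums were higher in ASO, with the liver marker at 79.7 in ASO and 30.5 in CRO. Endothelial and stromal markers (1 of 4 lower) summed to 2017 in ASO and 1675 in CRO. The neural marker, the 1 found of 2 listed, stood at 144 in ASO and 140 in CRO. The part of these cell types in the values that follow was not tested. In bulk cells, fewer cells of a type and less RNA per cell cannot be told apart.

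Of the 1073 miRNAs, 482 reached a base mean (the authors' mean normalized read count over all libraries) of 10, all 10 members among them. Of the 10, 9 had a log2 ratio of ASO over CRO below 0, beside 46.9% of the 482. For those 9, both ASO libraries lay below both CRO libraries, as they did for 18.7% of the 482. With miR-3068-5p, which was higher in both ASO libraries, the groups did not overlap for any of the 10, beside 41.9% of the 482. The median log2 ratio of the members was -1.04 (-0.68 without CRO library b), and that of the 482 was 0.041. At least 2-fold lower in ASO were 5 of the 10, beside 6.22% of the 482. An adjusted p under 0.05 in the authors' deposited table, from DESeq, was reached by 1 of the 10, miR-3068-3p, as lower in ASO. There, 1.12% of all 1073 passed as lower in ASO and 1.21% in either direction. Since the members were chosen from this same contrast, these counts say how they were chosen and nothing beyond that. A list of 12 miRNAs from ordinary Drosha hairpins, abundant in T cells, had a median log2 ratio of -0.069, from -0.65 to 0.43. Of these 12, 4 had both ASO libraries below both CRO libraries, beside 18.7% of the 482, and 1 had both above. The list is not matched to the members in abundance. Its lowest ASO mean was 5112, while the highest of the members was 1546, so the 12 are counted more precisely.

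**Figure D2:**
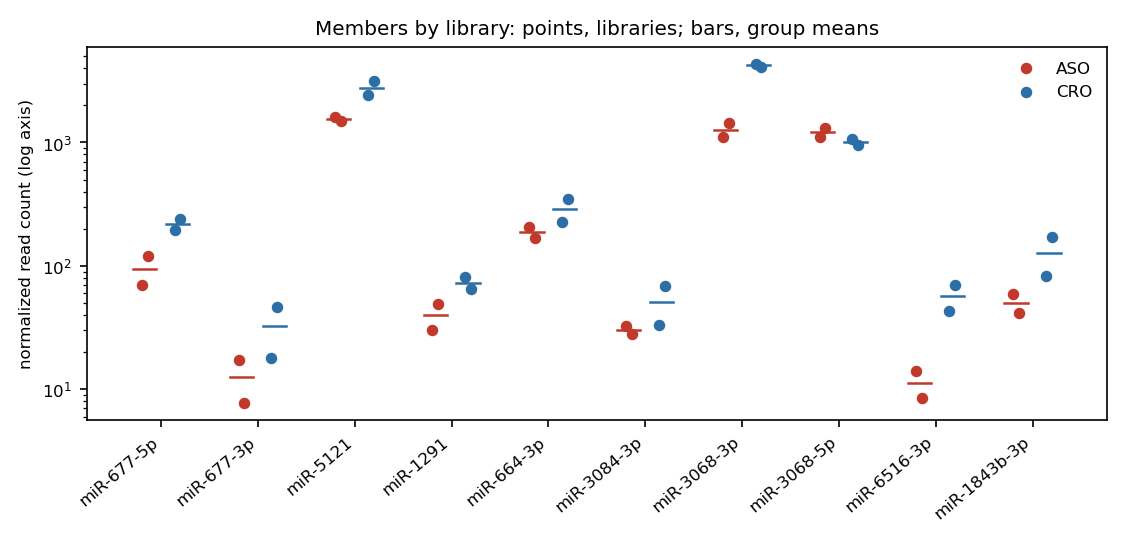
Normalized read count of each member (log axis) in the 2 ASO and the 2 CRO libraries. Points are libraries and bars are group means. The ASO points lie below the CRO points for every member except miR-3068-5p, whose ASO mean of 1209 is above the CRO mean of 1015.

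The 3 members with a box C/D host were all lower in ASO, with log2 ratios from -1.37 to -0.85. miR-677-5p, the fragment over the C box, had normalized counts of 70.1 and 120 in the ASO libraries, against 197 and 239 in the CRO libraries. The ASO mean was 94.8 ± 35.0 and the CRO mean 218 ± 29.7 (SD, n = 2 each), a log2 ratio of -1.20. Both ASO values lay well below both CRO values, and ratios of a single ASO to a single CRO library ran from -1.77 to -0.72.

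miR-677-3p, the fragment at the other end of the same snoRNA, was much less abundant. It had 28 and 11 reads in the ASO libraries, against 14 and 26 in the CRO libraries, or 17.2 and 7.74 normalized counts in ASO against 17.9 and 46.7 in CRO. The groups did not overlap, but ASO library a and CRO library a differed by less than 1 normalized count, and the log2 ratio of -1.37 was -0.52 without CRO library b and -2.06 without ASO library a. miR-677-3p had the direction of miR-677-5p, while its size rests on single libraries and on few reads.

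miR-5121, which lies near the start of Snord33, was the most counted of the 10 in ASO. Its normalized counts were 1594 and 1497 in the ASO libraries, against 2411 and 3162 in the CRO libraries. The ASO mean was 1546 ± 68.2 and the CRO mean 2786 ± 531 (SD, n = 2 each), a log2 ratio of -0.85. The ASO libraries stood close together and under both CRO libraries, with single-library ratios from -1.08 to -0.60.

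The 5 members on H/ACA hosts ranged more widely, from a log2 ratio of -1.73 to 0.25. The human namesake of miR-1291 represses the glucose transporter gene SLC2A1, a role not examined here for the mouse miRNA. Mouse miR-1291 had 30.1 and 49.2 normalized counts in the ASO libraries, against 81.9 and 64.7 in the CRO libraries. Its log2 ratio was -0.88, with single-library ratios from -1.44 to -0.39 and no overlap between groups. All 4 of its libraries held between 36 and 70 reads.

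miR-664-3p had 208 and 169 normalized counts in the ASO libraries, against 226 and 349 in the CRO libraries, a log2 ratio of -0.61. miR-3084-3p had 32.6 and 28.1 in the ASO libraries, against 33.3 and 68.3 in the CRO libraries, a log2 ratio of -0.74. For both, CRO library a lay just above the ASO libraries and CRO library b far above them. Without CRO library b the log2 ratio was -0.26 for miR-664-3p and -0.13 for miR-3084-3p.

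miR-3068-3p was the most counted of the 10 in CRO. It had 1101 and 1435 normalized counts in the ASO libraries, against 4327 and 4096 in the CRO libraries. The ASO mean of 1268 ± 237 was 30.1% of the CRO mean of 4211 ± 163 (SD, n = 2 each), a log2 ratio of -1.73. Each CRO library exceeded each ASO library by far more than the spread within either group, and single-library ratios ran from -1.97 to -1.51.

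miR-3068-5p, the opposite arm of that hairpin, was the 1 member that was not lower in ASO. It had 1098 and 1321 normalized counts in the ASO libraries, against 1074 and 956 in the CRO libraries, a log2 ratio of 0.25. The ASO values were above the CRO values, though ASO library a and CRO library a were nearly equal.

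The 2 members on scaRNA hosts were lower in ASO. miR-6516-3p had the lowest ratio of the 10, -2.33. It had 23 and 12 reads in the ASO libraries, against 34 and 39 in the shallower CRO libraries. In normalized counts these were 14.1 and 8.44 in ASO, against 43.5 and 70.1 in CRO, with single-library ratios from -3.05 to -1.62. The groups lay apart, and few reads limit the precision of the ratio.

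miR-1843b-3p had 59.0 and 41.5 normalized counts in the ASO libraries, against 83.1 and 172 in the CRO libraries. The ASO mean was 50.3 ± 12.4 and the CRO mean 128 ± 63.2 (SD, n = 2 each). The log2 ratio was -1.35 with all libraries and -0.73 without CRO library b, whose value was the highest of the 4.

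By host type, the median log2 ratio was -1.20 for the 3 members on box C/D hosts, -0.74 for the 5 on H/ACA hosts and -1.84 for the 2 on scaRNA hosts. A scaRNA can carry either kind of box. Gm26083, the scaRNA of miR-6516, has the ACA end letters, while Scarna3a has neither pattern. The 7 members on H/ACA or scaRNA hosts had a median of -0.88 together. The ranges of the types overlap, with miR-3068-3p (-1.73) lower than every box C/D member and miR-5121 (-0.85) higher than miR-1291 (-0.88). No order of host types can be read from so few miRNAs, which share precursors and were picked by their values.

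**Figure D3:**
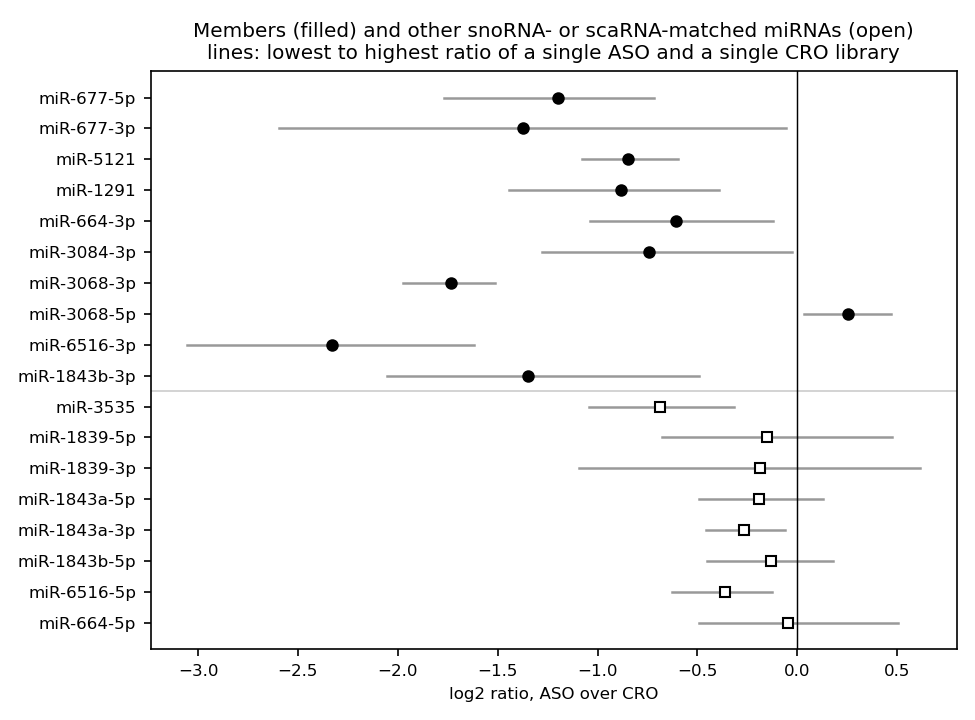
Log2 ratio of ASO over CRO (x axis) for the 10 members (filled circles) and for 8 other miRNAs past the base mean of 10 whose hairpin matches a snoRNA or scaRNA (open squares). Lines span the ratios of a single ASO to a single CRO library. The members run from -2.33 to 0.25 and the others from -0.69 to -0.048.

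The same search of all 1005 RefSeq hairpins placed 8 further miRNAs that reached a base mean of 10 on a snoRNA or scaRNA. All 8 had a log2 ratio of ASO over CRO below 0, beside 46.9% of the 482, from -0.69 to -0.048 with a median of -0.19. Of the 8, 3 had both ASO libraries below both CRO libraries, beside 18.7% of the 482. Matched names under that base mean had higher means in ASO, and are given under other observations. The 8 include the other arms of several members, which share a precursor with them. miR-3535, which covers the first 26 bases of a snoRNA in Ncl, the nucleolin gene, stood lowest. It had 2069 and 2522 normalized counts in the ASO libraries, against 4260 and 3144 in the CRO libraries, a log2 ratio of -0.69. Its groups did not overlap, and it too holds the C box letters UGAUGA.

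The most counted of the 8 was miR-1839-5p, from a scaRNA annotated under the miRNA's own name. It had 3215 and 4045 normalized counts in the ASO libraries, against 5144 and 2912 in the CRO libraries, a log2 ratio of -0.15. The CRO libraries enclosed both ASO values, so the difference was smaller than the spread between replicates. miR-1843a, a near copy of miR-1843b on Scarna3b in Dcaf5, had log2 ratios of -0.19 for its 5p arm and -0.27 for its 3p arm. miR-1843b-5p stood at -0.13. Of these 3 arms only miR-1843a-3p had groups that did not overlap, at 152 and 143 in the ASO libraries against 159 and 196 in the CRO libraries.

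The miRNAs were also grouped by their place on the host, a grouping made after the values were seen. Of the 17 that passed the filter and have a known place, 11 lay within 5 bases of a host end, and all 11 had both ASO libraries below both CRO libraries, beside 18.7% of the 482. Of the 11, 9 are members chosen for their values, and the others are miR-3535 and miR-1843a-3p. Of the 6 that lay further inside, 1 had both ASO libraries below both CRO libraries, miR-6516-5p, a share near that of the 482. Their median log2 ratio was -0.14, and that of the 11 was -0.88. The 6 are all 5p arms. At a host end, miR-677-5p, miR-1291 and miR-3535 lie in the 5′ part of their hairpin.

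The 2 arms of miR-677 had similar ratios, and those of miR-3068 did not. For miR-677 the 3p log2 ratio minus the 5p one was -0.17, a difference that changed sign when ASO library b (0.73) or CRO library b (0.53) was left out, and was -1.20 without ASO library a and -0.57 without CRO library a. For miR-3068 the difference was -1.98, and it ran from -2.05 to -1.93 with each library left out in turn. Among 135 hairpins whose arms both passed the filter, this was the largest difference between arms in absolute size, and that of miR-6516 (-1.97) came next. The arms of miR-3068, and miR-6516-3p, were chosen with their ratios known, so these ranks are not independent of the choice. Some of the 135 share reads, as miR-466b, miR-466c and miR-466p have the same 3p counts, so the 135 are not all separate. The median absolute difference over the 135 was 0.24. Both arms stood on the same side of 0 for miR-677 but not for miR-3068, beside 68.1% of the 135 that did.

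**Figure D4:**
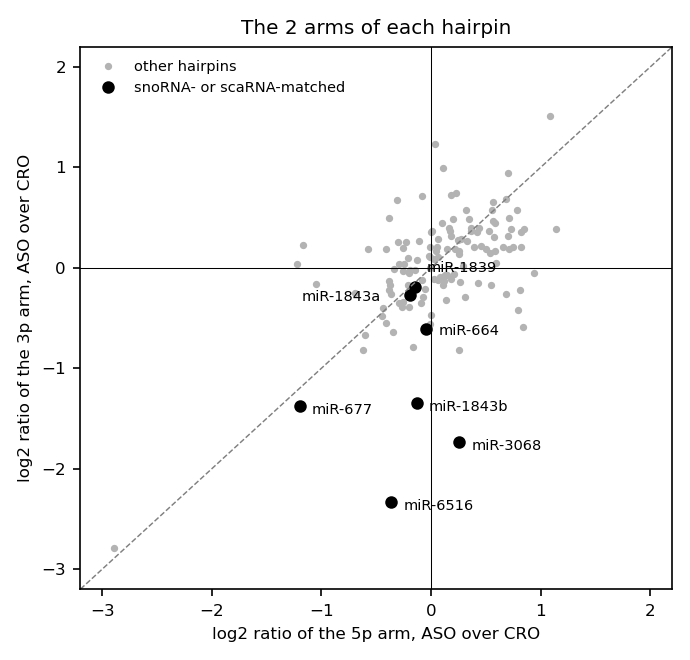
Log2 ratio of ASO over CRO for the 5p arm (x axis) and the 3p arm (y axis) of the 135 hairpins whose arms both passed the base mean of 10. Black points are the 7 hairpins on a snoRNA or scaRNA, and the dashed line marks equal ratios. miR-3068 and miR-6516 lie farthest below the line, miR-1843b (-0.13 and -1.35) also lies below it, and miR-677 lies close to it.

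The share of the 3p arm among the reads of both arms is taken within a library and so does not depend on how libraries are scaled. For miR-3068 the 3p arm made up 50.1% (95% exact binomial interval 48.4 to 51.7) and 52.1% (50.5 to 53.7) in the ASO libraries. In the CRO libraries it made up 80.1% (78.9 to 81.3) and 81.1% (79.6 to 82.5). The shares were close within each group and far apart between the groups. These intervals cover counting error only, since reads without molecular identifiers are not independent molecules.

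For miR-6516 the 3p share was 57.5% (40.9 to 73.0) and 37.5% (21.1 to 56.3) in the ASO libraries. In the CRO libraries it was 73.9% (58.9 to 85.7) and 81.3% (67.4 to 91.1). The shares of the groups did not overlap, but the interval of ASO library a overlaps those of both CRO libraries. Its 5p arm, with no more than 20 reads in a library, stood at 10.5 and 14.1 normalized counts in the ASO libraries against 15.3 and 16.2 in the CRO libraries, a log2 ratio of -0.36.

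miR-664 and miR-1843b also had lower 3p shares in both ASO libraries. For miR-664 they were 79.9% and 73.9% in the ASO libraries, against 84.3% and 82.6% in the CRO libraries. For miR-1843b they were 13.8% and 8.03% in the ASO libraries, against 14.1% and 29.1% in the CRO libraries, so ASO library a and CRO library a were alike. miR-664-5p had groups that overlapped and a log2 ratio of -0.048. The shares of miR-677, miR-1843a and miR-1839 overlapped between groups. In all, 4 of the 7 snoRNA or scaRNA hairpins had a lower 3p share in both ASO libraries, beside 17.0% of the 135, and the 3p ratio was below the 5p ratio in 7 of 7, beside 54.8% of the 135. Of the 7, 5 hold a member chosen with its ratio known, so nothing further is read from these counts.

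**Figure D5:**
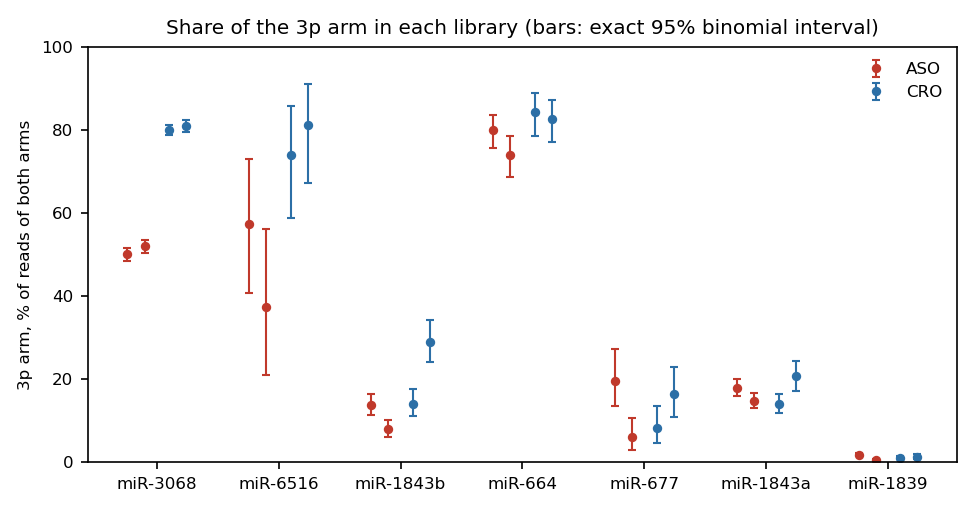
Reads of the 3p arm as a percentage of the reads of both arms (y axis) in each ASO and CRO library, for the 7 hairpins on a snoRNA or scaRNA. Points are libraries and bars are exact 95% binomial intervals. miR-3068 stands near 50% in ASO and near 80% in CRO, while the groups overlap for miR-677, miR-1843a and miR-1839.

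The median absolute log2 ratio between the 2 libraries of a group was 0.45 in ASO and 0.51 in CRO for these 10. Over the 273 miRNAs that reached a base mean of 100 it was 0.23 in ASO and 0.39 in CRO, though several members lie under that mean and are counted less precisely. CRO library b, the shallowest, held the higher CRO value for 7 of the 10. Lower in ASO by the adjusted p of the authors' deposited table were also 11 non-members, with log2 ratios from -2.97 to -1.45.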

How the data were processed

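The authors deposited 1 table of normalized signal values (base means), which per the file headers are read counts per miRNA divided by DESeq size factors and averaged over all libraries or a group. The deposited fold (a ratio), its log2 value and the p-value columns are CRO over ASO, and for 843 of 843 miRNAs with a finite log2 value the sign-reversed value equals log2 of the ASO mean over the CRO mean within 1e-06. The submitters' processing notes name DESeq and mm9. For the aligner, trimming and miRNA annotation: not given in the sources used here. A second deposited table gives 17 miRNAs higher in CRO, 4 lower and 21 in all, with no threshold stated. No per-sample columns were left out.

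Each group mean was split into 2 whole counts over 2 size factors, from its 15 significant digits. The tolerance for rounding was chosen with the residuals in view. For 1072 of 1073 miRNAs the split was unique in ASO, and for 1073 in CRO. miR-155-5p could be split in 6 ways in ASO. Only 1 of the 6 gave size factors that match median ratios over 636 miRNAs (largest relative difference 1.55e-15), and it was used. ASO libraries had size factors of 1.63 and 1.42, and CRO libraries of 0.782 and 0.557. The splitting was tested on simulated data.

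The members and lists were chosen with earlier results of these data known. Named miRNAs are the members, the other arms of their precursors, miR-1843a, and other snoRNA- or scaRNA-matched miRNAs that reach a base mean of 10. Of the last the 5 most counted, and others that a count singles out, have values. RefSeq hairpins (GRCm38.p6, which hold 890 of the 1073 names) were searched against snoRNA and scaRNA transcripts of GENCODE M21 with BLAST 2.17.0, for at least 25 bases at 95% identity on the same strand. No hairpin matched a transcript annotated in GENCODE M21 as nuclear or mitochondrial ribosomal RNA. Ribosomal sequence outside those transcripts, and names without a RefSeq hairpin, were not searched. miR-1839-3p was placed by its hairpin's name. Coordinates are GRCm38, not the mm9 of the authors. Hairpins were folded with RNAfold 2.7.2. Intervals are Clopper-Pearson. Scripts ran on Python 3.11.15 with pandas 2.3.3, scipy 1.17.1, numpy 2.4.6 and matplotlib 3.10.9.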

Additional observations from a re-analysis of the deposited data

How the results depend on the processing

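With 2 libraries per group, a CRO library of 3300457 reads and members with under 50 reads in a library, the sizes given are imprecise. No paired analysis was possible because libraries recovered from the means have no number to pair them by, and no test was made. The members were described without a test, so the alternatives bear on sizes and signs. Over 90 alternative values of the 10 members (pseudocounts of 0.5, 1 and 10, scaling to library totals or the upper quartile, and each library left out), 0 changed sign and 1 moved by more than the spread over single-library ratios, that of miR-6516-3p at a pseudocount of 10 (-1.65). The count of members below 0 was 9 under each of these. That spread comes from the same libraries, so leaving 1 of them out could hardly move a value beyond it. Without CRO library b, miR-3084-3p went from -0.74 to -0.13 and miR-1843b-3p from -1.35 to -0.73, and neither counted as moved. The median of the members ran from -1.25 to -0.68 when 1 library was left out, with -0.68 without CRO library b. The median over the 18 miRNAs on a snoRNA or scaRNA, -0.65, ran from -0.67 to -0.49 when 1 library was left out, and was -0.31 over 22 with no filter. The difference between the arms of miR-677 ran from -1.20 to 0.73 when 1 library was left out and was 0.21 at a pseudocount of 10. The difference for miR-3068 ran from -2.05 to -1.93. The 13 miRNAs of the authors' adjusted p became 21 when an unadjusted p under 0.05 was combined with a 2-fold difference.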

Other observations

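A further 4 names lie on a snoRNA or scaRNA and were counted too rarely for the groups above. miR-3084-5p, the other arm of miR-3084-3p, had 14 and 3 reads in the ASO libraries, against 0 and 1 in the CRO libraries. miR-3069, on Scarna13 within Snhg10, had 8 and 14 reads of its 5p arm in the ASO libraries, against 2 and 2 in the CRO libraries. Its 3p arm, which ends 3 bases before the 3′ end of that host, had 8 and 6 reads in the ASO libraries, against 0 and 3 in the CRO libraries. miR-7650-5p, on a snoRNA in Taf1d, had 2 and 1 reads in the ASO libraries, against 0 and 1 in the CRO libraries. The ASO libraries are deeper, and after scaling all 4 stood under 10 normalized counts in every library. By group mean all 4 were still higher in ASO after scaling. The log2 ratios were 2.58 for miR-3084-5p, 1.26 for miR-3069-5p, 0.76 for miR-3069-3p and 0.11 for miR-7650-5p, from very few reads. Of the 18 matched miRNAs that passed the filter, 17 were lower in ASO, beside 46.9% of the 482.

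miR-3084-5p had 8.61 and 2.11 normalized counts in the ASO libraries, against 0 and 1.80 in the CRO libraries, while miR-3084-3p was lower in ASO. The 3p arm of miR-3069, at 4.92 and 4.22 in the ASO libraries against 0 and 5.39 in the CRO libraries, is 1 host-end fragment whose ASO values are not below both CRO values.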
